A study of Mus musculus with 16 samples.

Results

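The retinoblastoma pocket proteins and the E2F transcription factors were examined as 10 genes: Rb1, Rbl1, Rbl2, E2f1, E2f2, E2f3, E2f4, E2f5, E2f7 and E2f8. They were chosen by gene symbol from a given list, and all 10 were found among the 17655 genes listed in each file. The study sequenced RNA of preSC, a mouse model of the stage before small cell lung cancer, whose cells the labels describe as Chga-positive lung neuroendocrine cells. Every cell, controls included, is labelled as null for Rb1 and as carrying 1 null allele of Rbl2. One group of 8 samples received an empty lentiviral vector ("empty") and the other group of 8 a lentivirus carrying Wnt5a ("Wnt5a"), and both were cultured for 48 hours with 1 µg/mL of doxycycline. How the null alleles were made, whether the line is 1 clone and whether samples came from separate cultures is not given in the sources used here, so p-values measure only the spread between these samples.

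The pocket proteins pRB, p107 (Rbl1) and p130 (Rbl2) bind E2F factors and hold their target genes silent until cyclin-dependent kinases phosphorylate them. E2F1, E2F2 and E2F3 are known as activators, E2F4 and E2F5 as repressors that work with p107 and p130, and E2F7 and E2F8 as atypical repressors that bind DNA without a DP partner and without a pocket protein. Loss of RB1 is a hallmark of small cell lung cancer, and Rbl2 is a further tumour suppressor in mouse models of this disease. Several of these genes are themselves known as E2F targets, so that the family regulates its own transcription.

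To show which of the 10 genes carry the known E2F recognition sequence near their start, the octamers TTTCCCGC, TTTGGCGC, TTTCGCGC and TTTGCCGC were searched on both strands, from 250 bases before to 50 bases after each RefSeq gene start (GRCm38.p6). The 4 octamers differ at their middle bases, and no overlap between matches was removed. RefSeq windows were matched for 7 of the 10 genes, and 4 of these 7 held an octamer, against 2.26% of all 32851 windows and 4.80% of the 9700 tested genes with a window. The 30 bases around each match are shown 5′ to 3′ on the gene's strand, with the octamer in capitals, or its reverse complement where the match lies on the opposite strand. The matches lie at chr2:157204534-157204563 (minus strand) for Rbl1, chr4:136172294-136172323 (plus strand) for E2f2, chr13:29986056-29986085 (minus strand) for E2f3 and chr10:110745230-110745259 (plus strand) for E2f7.
Rbl1: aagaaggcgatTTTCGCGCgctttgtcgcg
E2f2: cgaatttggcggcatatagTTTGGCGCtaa
E2f3: ttgaaaagccgGCGGGAAAtctgagtttcg
E2f7: cccgcgtccccGCGGGAAAcgctcccgcgt
The octamer began 18 bases before the start in Rbl1, 11 bases before it in E2f3 and 198 bases before it in E2f7, and at base 40 after the start in E2f2. E2f1, E2f8 and Rbl2 held none of these letters in their windows. Among genes known as G1/S targets of E2F, 13 of the 24 with a window held an octamer, and among G2/M targets 1 of 14. A match is a description of the letters and not evidence that a factor binds there.

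Values are normalised read counts, which equal whole reads divided by 1 factor per sample. Samples carried 7526676 to 8859862 recovered reads. Samples 1 to 4 of a group differed from one another by little more than sampling noise, as did samples 5 to 8 (index of dispersion 0.987 to 1.05 within and 5.23 to 5.44 between these sets). Each set was therefore averaged as 1 library, A and B, and tests rest on 2 libraries per group (n = 2). The members held 563 to 13726 reads per library. All 8 neuroendocrine markers were present, with a summed level of 48866 to 53699 per library. Of the other markers listed in the files, 4 fibroblast genes summed to 244 to 604, of which Dcn alone made up 241 to 597, and Col1a2 was listed at 0 in both empty libraries. The 2 leukocyte genes summed to 9.37 to 12.7, the 3 endothelial genes to 3.52 to 5.79 and the 4 lung epithelial genes to 42.5 to 47.9, and Cd3e, Cdh5 and Scgb1a1 held at most 1 read per library. Dcn was higher in the empty libraries (log2 difference -0.89; limma adjusted p = 0.131, and 0.014 with the block). Col1a1 and Pdgfra reached at most 3.56 and 9.41 per library. Which cells the Dcn reads came from, and their part in the results, was not tested. Wnt5a was at 144 and 99.8 in empty libraries A and B and at 1049 and 1509 in Wnt5a libraries A and B. The neuroendocrine marker Chga was at 4043 ± 462 without and 3403 ± 561 with Wnt5a (SD over 2 libraries each; log2 difference -0.25; limma adjusted p = 0.428, and 0.013 with the block), and its difference was -0.08 without Wnt5a library B and -0.42 without Wnt5a library A.

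Rb1 transcripts were abundant in every sample of these cells, although they are labelled Rb1 null. In the empty samples Rb1 ranged from 3158 through a median of 3227 to 3302, and in the Wnt5a samples from 3147 through 3198 to 3222. The ranges overlap and span less than the distance to any other member. Reads are counted per gene, so they do not show whether the counted transcripts lack an exon or encode protein. In GENCODE M21, 488 exonic bases of Rb1 are shared with Rcbtb2 on the opposite strand and 408 with Lpar6, and whether counting used strand is not given in the sources used here. Rcbtb2 was at 493 to 595 and Lpar6 at 15.9 to 19.1 per library, both far under Rb1.

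Rbl1, which encodes p107, ranged from 747 through a median of 827 to 905 in the empty samples and from 841 through 883 to 911 in the Wnt5a samples. The low values were those of empty library A (747 to 809), and all other samples lay at 841 or above. Rbl2, which encodes p130 and has 1 null allele by label, ranged from 299 through 322 to 340 in empty and from 299 through 359 to 380 in Wnt5a samples. Here 6 of the 8 Wnt5a samples, including all 4 of library A (348 to 380), lay above all empty samples. The other 2 came from library B (299 to 370) and lay within the empty range. Near-identical samples of a library are not replicates, and E2f1 had the same count of 6. Rbl2 shares 693 exonic bases with Aktip on the opposite strand, which was at 444 to 483 per library, and 892 with Gm45464. Whether reads in shared bases were counted for Rbl2, for the other gene or for neither is not given in the sources used here.

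Among the activators E2f2 was the most abundant. It ranged from 1860 through a median of 2063 to 2210 in the empty samples and from 2045 through 2274 to 2409 in the Wnt5a samples. The 4 samples of Wnt5a library B (2365 to 2409) were the highest, and the 4 of Wnt5a library A (2045 to 2183) fell within the empty range. E2f1 ranged from 792 through 850 to 886 in empty and from 860 through 899 to 963 in Wnt5a samples. E2f3 ranged from 286 through 346 to 374 in empty and from 360.2 through 390.0 to 419 in Wnt5a samples. Here 5 of 8 Wnt5a samples exceeded every empty sample, a count in which near-identical samples of a library are not replicates. The gene-level counts do not separate the E2f3 transcripts that begin at its alternative starts.

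Of the repressors, E2f4 ranged from 352 through a median of 366 to 409 in the empty samples and from 358 through 383 to 411 in the Wnt5a samples, and the ranges nearly coincide. E2f5, the member with the fewest reads, ranged from 131 through 157 to 174 in empty and from 156 through 174 to 186 in Wnt5a samples. Of the atypical factors, E2f7 ranged from 492 through 572 to 619 in empty and from 515 through 542 to 564 in Wnt5a samples, which lie wholly within the empty range. E2f8 ranged from 861 through 963 to 1092 in empty and from 878 through 970 to 1005 in Wnt5a samples, again within the empty range. For E2f8 both extremes of the empty group came from different libraries, A at 861 to 897 and B at 1028 to 1092. In GENCODE M21, exons of E2f5, E2f7 and E2f8 share 26, 86 and 610 bases with genes on the opposite strand.

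**Figure D1:**
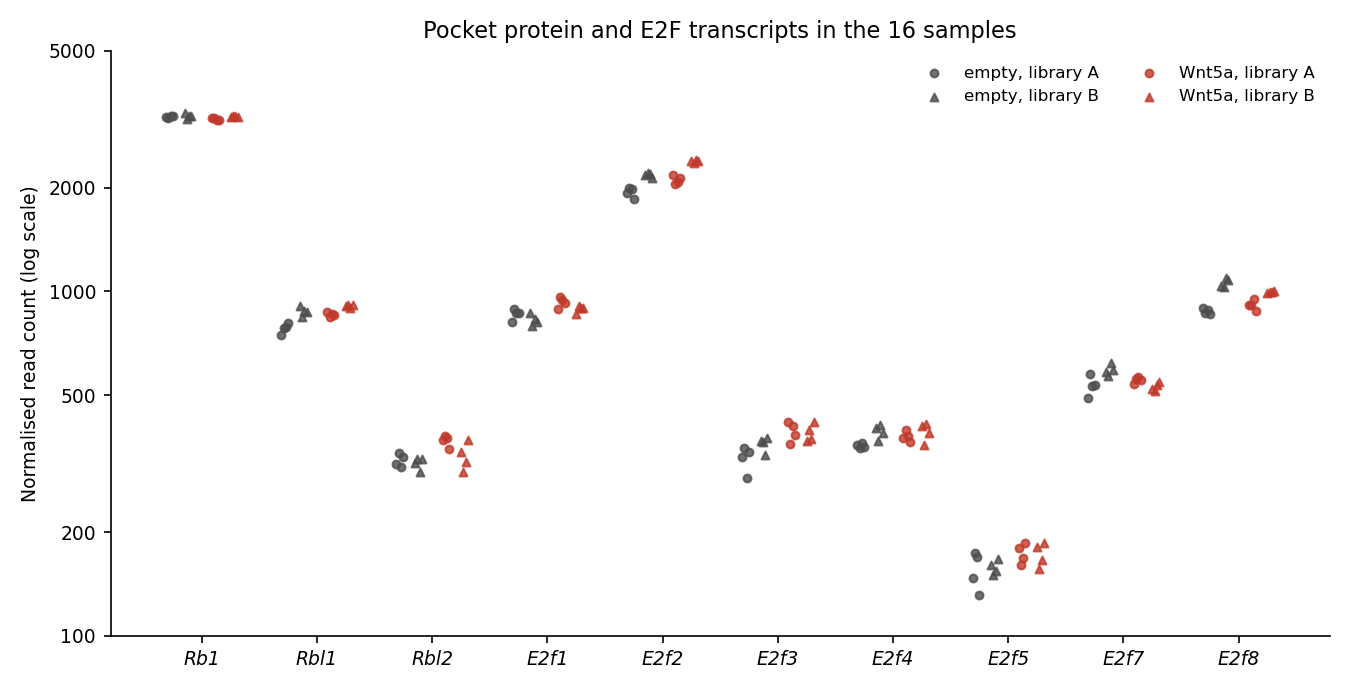
Normalised read count (log axis) of the 10 genes in the 16 samples. Points are single samples of library A (circles, samples 1 to 4) and library B (triangles, samples 5 to 8) in empty (grey) and Wnt5a (red) cells. Rb1 lies at 3147 to 3302 in all samples, and no gene separates all 8 Wnt5a from all 8 empty samples.

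Genes were then ordered by normalised read count per kilobase of the longest GENCODE M21 transcript, since longer transcripts give more reads. Rb1 stood first at 692 ± 1.88 per kilobase without and 686 ± 7.30 with Wnt5a (SD over 2 libraries each), above 94.5% of the 12225 tested genes with a known length. E2f2 followed at 435 ± 35.2 and 475 ± 41.5, E2f1 at 306 ± 8.52 and 329.7 ± 10.5, and E2f8 at 262 ± 34.8 and 259 ± 15.8. E2f4 (179 to 196 over the 4 libraries) and Rbl1 (161 to 186) overlapped and could not be ordered. The same held for E2f7 (96.6 to 108) and E2f5 (87.3 to 97.4), and for E2f3 (64.2 to 76.8) and Rbl2 (64.4 to 74.9), which were the lowest. By this length the median tested gene was at 96.1 per kilobase, so E2f7 and E2f5 lay near the middle of expressed genes and E2f3 and Rbl2 below it. By mean transcript length E2f7, E2f5, E2f3 and Rbl2 were at 283, 93.3, 100.1 and 164 per kilobase. No median over tested genes was taken for that length, so the placement holds for the longest transcript only.

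**Figure D2:**
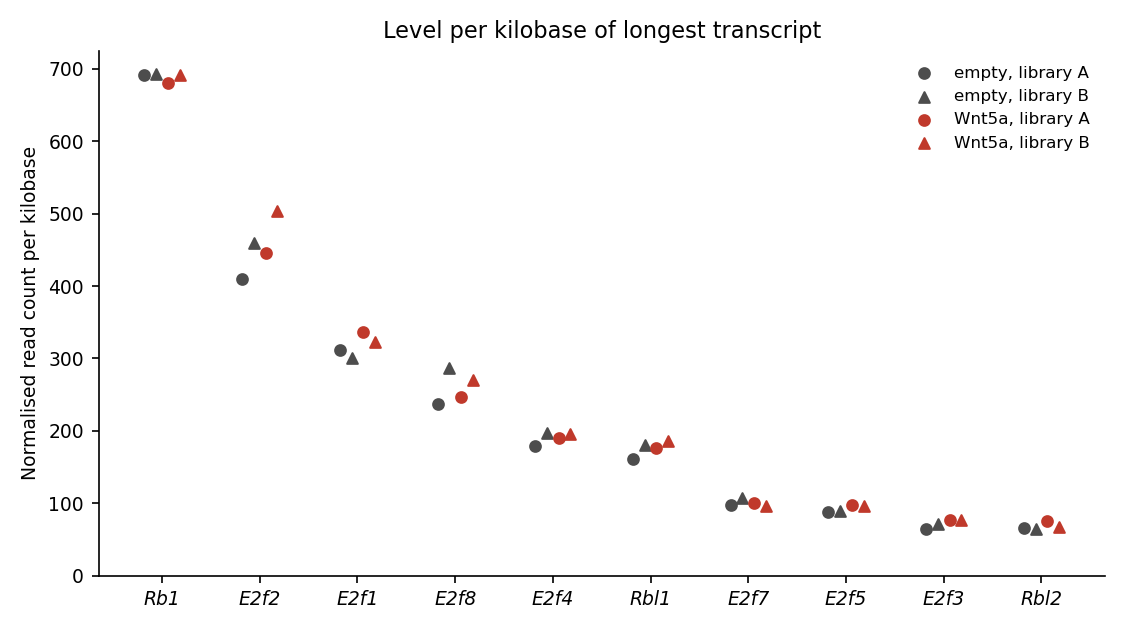
Normalised read count per kilobase of the longest transcript for the 10 genes, in decreasing order of the mean over the 4 libraries. Each point is 1 library. Rb1 lies at 681 to 694 and E2f2 at 410.0 to 504, and the neighbouring pairs E2f4 and Rbl1, E2f7 and E2f5, and E2f3 and Rbl2 overlap.

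Expressed as shares of the summed level per kilobase, the make-up of the family was similar in all 4 libraries. Of the transcripts of the 3 pocket protein genes Rb1 held 73.1% to 75.3%, Rbl1 17.5% to 19.7% and Rbl2 6.87% to 8.03%. These are shares of RNA and not of protein. The cells are labelled Rb1 null, and Rb1 transcripts enter the sum whether or not they encode protein. Of the 7 E2F members the activators E2f1, E2f2 and E2f3 together held 55.0% to 57.8%, the repressors E2f4 and E2f5 18.8% to 19.2%, and the atypical E2f7 and E2f8 23.3% to 26.1%. E2f2 alone held 29.6% to 32.3% and E2f1 19.9% to 22.5%, whereas E2f3 held 4.63% to 5.14%. The atypical share was highest in empty library B (26.1%) and between 23.3% and 24.1% in the other libraries. The order of Rb1 and E2f2 at the top did not depend on the length used, but with the mean transcript length only 5 of the 10 genes kept their rank, and E2f1 moved from rank 3 to rank 6. With that length Rb1 held 84.1% to 85.6% of the pocket protein sum, Rbl1 9.37% to 10.7% and Rbl2 4.84% to 5.67%. Of the E2F sum E2f1 then held 12.5% to 14.4%, E2f7 up to 12.6% and E2f5 3.72% to 4.19%, against 6.19% to 7.14% for E2f7 and 5.88% to 6.52% for E2f5 by the longest transcript.

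The comparison of Wnt5a with empty cells asks whether expression of this secreted Wnt ligand was accompanied by a change in the pocket protein and E2F transcripts. With limma, a moderated linear model, on log2(value + 1), none of the 10 genes passed a Benjamini-Hochberg adjusted p of 0.05 (0 of 10, with 0 of 10 at an unadjusted p under 0.05). Over all 12357 genes tested 2.06% passed and 16.1% had an unadjusted p under 0.05. On the recovered reads, edgeR's quasi-likelihood test and DESeq2 also called 0 of the 10, while calling 1.99% and 4.35% of all genes. With the library as a replicate block limma called 0 of the 10 and 17.0% of all genes. In that block fit 2 of the 10, E2f2 and E2f3, had an unadjusted p under 0.05, against 31.2% of all genes. Of the alternatives run, only when all 16 samples were counted separately did members pass, 3 of 10 without and 6 of 10 with the block, in fits that called 35.4% and 48.7% of all genes because near-identical samples stand as replicates.

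In the fit of all 4 libraries the largest difference was that of E2f3, whose mean was 344 ± 23.5 in empty and 390.4 ± 1.76 in Wnt5a cells (SD over 2 libraries). This is 0.18 on the log2 scale (SE 0.09, 95% interval -0.02 to 0.39). Its limma adjusted p was 0.377 without the block and 0.092 with it. E2f5 went from 157 ± 1.88 to 173 ± 0.69, a log2 difference of 0.14 (95% interval -0.09 to 0.37; limma adjusted p = 0.565). Rbl2 went from 321 ± 4.56 to 351 ± 25.6, and its log2 difference of 0.13 had an interval of -0.09 to 0.34. E2f2 went from 2061 ± 167 to 2249 ± 197, a log2 difference of 0.13 (interval -0.10 to 0.35; limma adjusted p = 0.620, and 0.088 with the block). E2f1 went from 843 ± 23.5 to 908 ± 29.0, a log2 difference of 0.11 (interval -0.07 to 0.28). For each of these 5 genes the interval includes 0, and their order turned on single libraries. Rbl2 exceeded E2f3 without empty library A (0.14 against 0.12) and without Wnt5a library B (0.20 against 0.19), and E2f2 did so without Wnt5a library A (0.21 against 0.18).

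For the other 5 genes the estimates were nearer 0. Rbl1 went from 828 ± 65.6 to 881 ± 34.8, a log2 difference of 0.09 with an interval of -0.11 to 0.30. E2f4 went from 374 ± 24.6 to 385 ± 8.48, a log2 difference of 0.04 with an interval of -0.17 to 0.25. E2f7 went from 562 ± 40.1 to 541 ± 17.1, a log2 difference of -0.05 with an interval of -0.26 to 0.15. E2f8 went from 967 ± 128 to 954 ± 58.4, a log2 difference of -0.01 with an interval of -0.27 to 0.24. Rb1 had the narrowest interval, -0.18 to 0.16 around a log2 difference of -0.01. Taken gene by gene, the 10 intervals reached from 0.830-fold at the lowest end to 1.31-fold at the highest. They are not joint limits for the 10 genes, and they measure only the spread between these samples. An adjusted p above the threshold does not show that the groups are alike.

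The estimate was above 0 for 7 and below 0 for 3 of the 10 genes, with a median log2 difference of 0.10, beside a median of 0.0026 over all genes tested, of which 50.7% were above 0. The members' median was 0.03 without empty library A and 0.04 without Wnt5a library B. Rb1 and E2f8 had the opposite sign after quantile normalization (0.0050 and 0.0069). The libraries of the groups did not overlap for 4 genes, E2f1, E2f3, E2f5 and Rbl2, each higher in Wnt5a, while 44.2% of all tested genes did not overlap and 22.7% were without overlap and higher in Wnt5a. In no member did all 16 samples separate by group, against 12.4% of all genes. An exact permutation test of 2 against 2 libraries cannot give a p below 0.333. Genes with a mean level within the members' range (165 to 3208) numbered 8179, and 1.27% of them passed, the smallest passing log2 difference being 0.41 in size. None of the 10 genes lies on chromosome 1, 11 or 19, where the median tested gene differed between the groups by -0.17, 0.17 and 0.36. On their own 8 chromosomes that median lay between -0.0050 and 0.02.

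**Figure D3:**
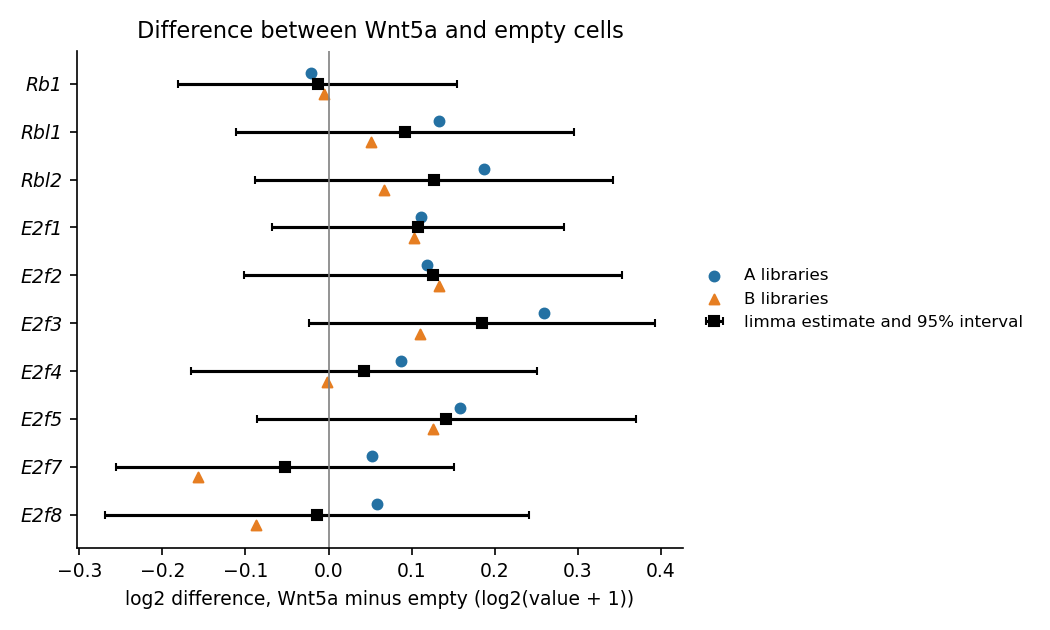
Log2 difference of Wnt5a minus empty for the 10 genes, on log2(value + 1). Squares are limma estimates with 95% intervals from 2 libraries per group, circles the difference between the A libraries and triangles that between the B libraries. Every interval includes 0, and E2f4, E2f7 and E2f8 have opposite signs in the A and B libraries.

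Differences within the A libraries and within the B libraries had the same sign in 7 of the 10 genes. The share of all tested genes with the same sign was not examined, so this count is not a trait of the family. E2f1 differed by 0.11 between the A and 0.10 between the B libraries on the log2 scale, E2f2 by 0.12 and 0.13, and E2f5 by 0.16 and 0.13. E2f3 differed by 0.26 and 0.11 and Rbl2 by 0.19 and 0.07, so these genes differed less between the B than between the A libraries. E2f4, E2f7 and E2f8 had opposite signs: E2f4 differed by 0.09 between the A and -0.0023 between the B libraries, E2f7 by 0.05 between the A and -0.16 between the B libraries, and E2f8 by 0.06 and -0.09. With 1 library per group and set, whether the A and B differences are themselves unequal was not tested.

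Libraries A and B of one group also differed for several of the 10 genes. What distinguishes samples 1 to 4 from 5 to 8 is not given in the sources used here, and because the split was found in these counts its differences are described without a test. E2f8 was 0.27 higher in B than in A in empty cells and 0.12 higher in Wnt5a cells (log2). E2f2 was 0.17 and 0.18 higher in B, and Rbl1 0.16 and 0.08 higher. Rbl2 was lower in B in both groups, by -0.03 and -0.15, and so was E2f1, by -0.06 and -0.07. The mean difference of B from A exceeded that of Wnt5a from empty in size for 5 of the 10 genes. Its sign was shared by both groups in 7 genes, of which 5 (Rb1, Rbl1, E2f2, E2f4 and E2f8) were higher in B. Here too the share over all tested genes was not examined.

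**Figure D4:**
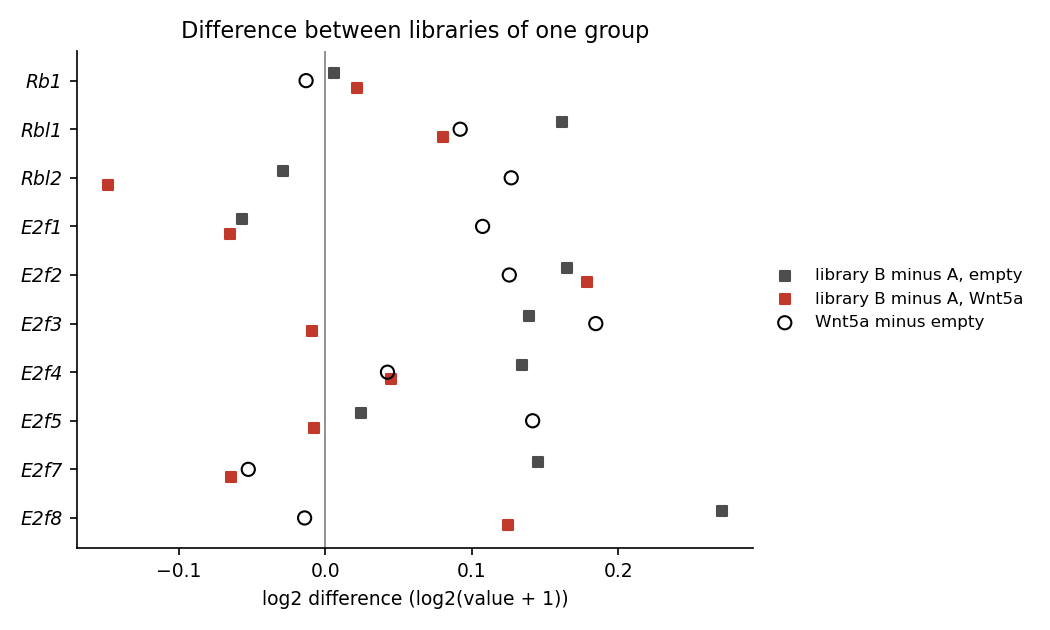
Log2 difference of library B minus library A for the 10 genes in empty (grey squares) and Wnt5a (red squares) cells, with the difference of Wnt5a minus empty as open circles. E2f8, E2f2 and Rbl1 are higher in library B in both groups, by 0.08 to 0.27.

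The genes around the family were taken from lists written from general knowledge. The dimerization partners, which E2F1 to E2F5 need to bind DNA, were both well expressed. Tfdp1, which encodes DP1, had means of 2818 ± 152 without and 2882 ± 116 with Wnt5a, and Tfdp2, which encodes DP2, of 1003 ± 48.6 and 993 ± 58.8 (SD over 2 libraries each). Per kilobase of the longest transcript Tfdp1 (1011 and 1034) exceeded every E2F member, and the order by mean transcript length was not examined. Their log2 differences of 0.03 and -0.01 did not pass the test (limma adjusted p = 0.906 and 0.960).

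Upstream of the pocket proteins, the D-type cyclins Ccnd1 and Ccnd2 had few or no reads and Ccnd3 was expressed. Ccnd2 had 1 read in empty library B and 0 in each of the other libraries, and Cdk6 had 5 and 4 reads in empty A and B and 0 and 2 in Wnt5a A and B. A count of 0 allows up to 3 reads per library, counting error only. Ccnd1 held 38 and 29 reads without and 24 and 14 reads with Wnt5a, and these 3 genes fell under the limit for testing. Ccnd3 stood at 48.7 per kilobase without and 43.8 with Wnt5a, while Cdk4, the kinase partner of the D cyclins, was at 1267 and 1423. Ccne2 stood at 659 and 620.4 per kilobase and Ccne1 at 269 and 221, both of them cyclins that activate Cdk2. Of the 8 cyclins and kinases 5 were tested and 0 passed, against 2.06% of all genes tested (median log2 difference -0.09). This median was -0.15 without empty library A and -0.02 without empty library B. With the replicate block, which called 17.0% of all genes, 2 of 5 passed: Ccne1, lower in Wnt5a at 442 ± 13.7 against 538 ± 15.7 (log2 difference -0.28; limma adjusted p = 0.144, and 0.013 with the block), and Cdk4, higher by 0.16 (0.647, and 0.043 with the block). Cdk4 differed by 0.03 without empty library A and by 0.0044 without Wnt5a library B, against 0.30 and 0.32 without the other library of each group.

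The inhibitors of these kinases were all detected. Cdkn2a, which encodes p16INK4a and p19ARF, stood at 1035 per kilobase of the longest transcript without and 979 with Wnt5a. Cdkn2c, which encodes p18INK4c, stood at 1050 and 1245. By that length Cdkn2a lay above each of the 10 family genes, and the order by mean transcript length was not examined. Of the 7 inhibitors 0 passed the test, against 2.06% of all genes tested, with a median log2 difference of -0.08. The median was -0.18 without empty library A, and without empty library B it turned to 0.03, with 4 of 7 above 0. With the block 2 of 7 passed, in a fit that called 17.0% of all genes: Cdkn2c, higher in Wnt5a (2595 ± 200.5 and 3077 ± 21.7, log2 difference 0.25; limma adjusted p = 0.201, and 0.017 with the block), and Cdkn1a, which encodes p21, lower (1456 ± 22.3 and 1257 ± 31.2, log2 difference -0.21; 0.201, and 0.023 with the block).

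The MuvB core, which joins p130 and E2F4 in quiescent cells and Myb or Foxm1 in dividing cells, was listed with the Myb genes and Foxm1 as 8 genes, all of which were expressed. Of these 0 passed, against 2.06% of all genes tested (median log2 difference -0.02, or 0.07 without empty library B). With the block, in which 17.0% of all genes passed, Lin9 alone was lower in Wnt5a, at 821 ± 28.8 against 925 ± 23.0 (log2 difference -0.17; limma adjusted p = 0.322, and 0.046 with the block). Lin9 lies on chromosome 1, where the median gene was also lower. Of the 8 corepressors that bind pocket proteins 0 passed with or without the block, against 17.0% and 2.06% of all genes tested. The largest difference, that of Sin3a, was -0.11 (limma adjusted p = 0.615).

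Among 30 genes known as G1/S targets of E2F 0 passed, against 2.06% of all genes tested. Of the 30, 23 had estimates above 0, against 50.7% of all genes, and their median log2 difference was 0.04. Without empty library A only 13 were above 0, with a median of -0.0087, and without empty library B the median was 0.11. With the block 3 of 30 passed, against 17.0% of all genes in that fit. Gins1, a subunit of the replicative helicase, was at 159 ± 12.9 and 200.5 ± 12.5 (log2 difference 0.33; limma adjusted p = 0.1998, and 0.023 with the block). Ccna2, which encodes cyclin A2, differed by 0.17 (0.402, and 0.036 with the block), and by 0.10 without empty library A. Mcm6, another helicase subunit, was lower in Wnt5a (5402 ± 14.6 and 4488 ± 106, log2 difference -0.27; limma adjusted p = 0.144, and 0.0085 with the block). Mcm6 lies on chromosome 1.

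The 15 G2/M genes, which carry out mitosis and lie further downstream, had the highest median of the lists, 0.18 on the log2 scale. Their estimates were above 0 for 14, against 50.7% of all genes. This median fell to 0.05 without empty library A, with 10 estimates above 0, and to 0.07 without Wnt5a library B. It was 0.35 without empty library B and 0.29 without Wnt5a library A. In this list 1 of 15 genes passed, against 2.06% of all genes tested. This was Kif11, a kinesin motor of the mitotic spindle, which rose from 1507 ± 208 to 2353 ± 75.2 (SD over 2 libraries each). The log2 difference was 0.65, with an SE of 0.10 and a limma adjusted p of 0.034, or 0.0012 with the block. The limma call for Kif11 was lost without Wnt5a library B (adjusted p = 0.085), without the filter on low values (0.116), with a minimum of 50 (0.056) and without the trend (0.098). With the block 8 passed, all higher in Wnt5a, against 8.68% of all genes in that direction. They include Birc5 (log2 difference 0.56), Aurkb (0.46) and Top2a (0.36), whose limma adjusted p-values were 0.231, 0.072 and 0.127 without the block and 0.0048, 0.0032 and 0.0093 with it. Birc5 differed by 0.26 without empty library A and by 0.87 without empty library B. Kif11 lies on chromosome 19, and Birc5, Aurkb and Top2a on chromosome 11, where the median gene was also higher in Wnt5a. Without the genes on chromosomes 1, 11 and 19, a choice made after the data were examined, the median of the 11 remaining G2/M genes was 0.13, and 0 passed without and 4 with the block. The part of these chromosomes in the G2/M values was not otherwise tested. In bulk RNA, fewer cells of a kind and less RNA per cell cannot be told apart, and the same holds for the share of cells in a phase of the cycle.

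**Figure D5:**
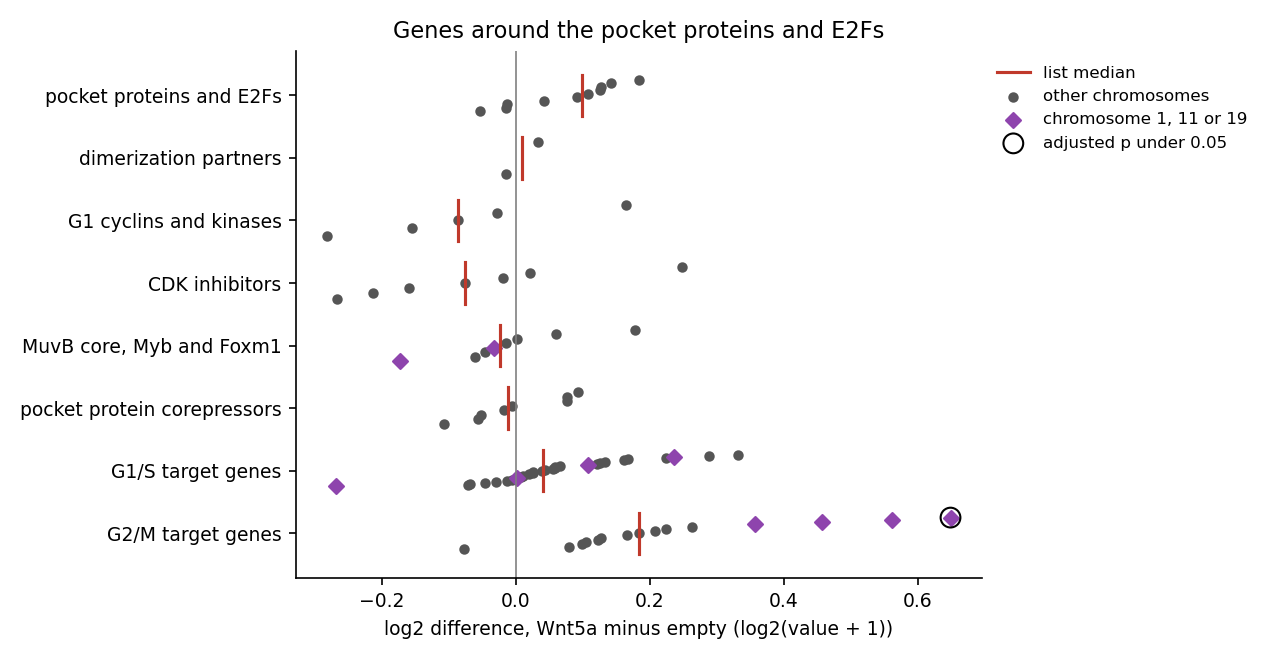
Log2 difference of Wnt5a minus empty, on log2(value + 1), for the 10 pocket protein and E2F genes and for the tested genes of 7 lists. Points are genes, diamonds genes on chromosome 1, 11 or 19, red bars list medians, and a ring marks Kif11, the 1 gene with a limma adjusted p under 0.05. The 4 highest G2/M genes are all diamonds.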

How the data were processed

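The deposited values are a signal per gene, normalised by the authors; every value above 0 was a whole multiple (tolerance 0.02) of 1 step per file, from which reads were recovered. The submitters' processing notes name TopHat, Bowtie, HTSeq and DESeq2; genome build, annotation and strand use are not given in the sources used here. Values of samples 1 to 4 and 5 to 8 were averaged as libraries A and B (index of dispersion under 1.5 within). Genes with a mean value of at least 10 (12357) were compared on log2(value + 1) by limma 3.58.1 in R 4.3.3, using eBayes with a mean-variance trend. P-values were adjusted by Benjamini-Hochberg across these genes and called under 0.05; the scale understates changes of low genes. The differences between libraries A and B were correlated across genes between the 2 groups (Pearson r 0.44). Deviations of same-numbered samples from their group means gave r of 0.175 to 0.220. As samples of a library are near-identical, these 8 values repeat the contrast of A and B and do not show that sample numbers pair. Because the contrast of A and B was partly shared, the library was also fitted as a replicate block, with 1 residual degree of freedom. Alternatives included edgeR 4.0.16 (quasi-likelihood, TMM) and DESeq2 1.42.0 on reads summed per library. The procedures were run on 3 simulated data sets, in which 200 genes changed by at least 2-fold and libraries A and B shared no contrast. Differences as small as those of the 10 genes were not simulated. Lengths and exon overlaps came from GENCODE M21, and chromosomes from the RefSeq table of GRCm38.p6 (17623 of 17655 symbols matched). The members and lists were chosen with earlier results of these data known. Genes named from a list are those with an adjusted p under 0.05, with or without the block, up to 4 per list by size of difference, or else the 1 with the largest difference; both dimerization partners were named in any case. Genes at or near 0, and per-kilobase levels of further list members, were named after their values were seen. Another element of the labelled genotype, shared by both groups, is not reported here.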

Additional observations from a re-analysis of the deposited data

How the results depend on the processing

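Against 254 of all genes, 146 passed without the filter, 102 with a minimum of 50, 158 without the trend, 4377 with all 16 samples counted separately, 2095 with the replicate block, 6012 with both and 538 with DESeq2. Leaving out 1 library gave 138 (without Wnt5a B) to 1098 (without empty B), with 493 without empty A and 166 without Wnt5a A; the lone library is assumed to vary like the other group. Of the 10 pocket protein and E2F genes 0 passed under the block or any other alternative that averages samples into libraries. With all 16 samples separately 3 passed (E2f1, E2f2 and E2f3), and 6 with the block as well (also Rbl1, Rbl2 and E2f5), but such fits count near-identical samples as replicates. Those 2 fits called 35.4% and 48.7% of all genes. In them 2 and 4 of 5 tested G1 cyclins and kinases passed, 2 and 4 of 7 inhibitors and 2 and 2 of 8 MuvB genes. The counts were 1 and 4 of 8 corepressors, 9 and 13 of 30 G1/S and 9 and 15 of 15 G2/M genes. With the replicate block alone, which called 17.0% of all genes, these were 2, 2, 1, 0, 3 and 8. The G2/M count was 0 without the filter, with a minimum of 50, without the trend and without chromosomes 1, 11 and 19. It was 4 with DESeq2, which called 4.35% of all genes. Without 1 library it was 0 (Wnt5a B) to 5 (empty B), and the G1/S count 0 to 3 (empty B). With the mean transcript length 5 of 10 level ranks were kept. After quantile normalization Rb1 (0.0050), E2f8 (0.0069) and Tfdp2 (0.0041) changed sign. Without 1 library Rbl1 ranged from 0.0112 to 0.173, Rbl2 from 0.0526 to 0.201, E2f2 from 0.0363 to 0.215, E2f3 from 0.115 to 0.254, E2f1 from 0.0748 to 0.1399, E2f5 from 0.129 to 0.154 and Rb1 from -0.0241 to -0.0024, all with their sign kept. E2f4 ranged from -0.0247 to 0.109, E2f7 from -0.125 to 0.01995, E2f8 from -0.150 to 0.121, Tfdp1 from -0.0222 to 0.0881 and Tfdp2 from -0.0749 to 0.0459. The cause of these changes was not tested.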
